A study of Mus musculus with 6 samples.

Results

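The regions described here are all windows in which the authors listed a methylation difference between bone marrow cells exposed to R-2HG and cells carrying mutant IDH1. Their deposited table of this comparison holds 604 rows, which are 603 windows once a window repeated for a second transcript is counted once. These are 603 of the 2135 windows listed in any of the study's 3 comparisons. Each window is 500 bp long, neighbouring windows start 250 bp apart, and each was assigned by the authors to the nearest transcription start site, which gave 369 genes. Positions are in the mouse build mm9.

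Reduced representation bisulfite sequencing (RRBS), which cuts DNA with MspI and reads cytosine methylation in the CpG-rich fragments, was applied to 6 libraries in 3 groups. All cells were bone marrow cells of C57BL/6 mice that had been immortalised with HoxA9 and were grown in irradiated recipient mice. IDH1mut cells (2 libraries) carried pSF91-IDH1mut-IRES-GFP, with the mutation R132C going by the title of the authors' table. R-2HG cells (2 libraries) carried an empty vector, and their recipients received 1 mg of R-2HG daily over 4 weeks. IDH1wt cells (2 libraries) carried pSF91-IDH1wt-IRES-EGFP and serve here only to say which of the other groups moved. GFP-positive cells were sorted after 4 weeks. The vector's promoter, the mice per library and the number of transduced clones stay unnamed here, since no source used here gives them. The vector insert and the source of the metabolite differ together between R-2HG and IDH1mut, so they cannot be told apart. R-2HG and IDH1wt likewise differ in both treatment and insert, and no untreated cells with the empty vector were analysed here, so a group said to have moved is one listed against IDH1wt.

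Mutant IDH1 loses its normal reaction and reduces 2-oxoglutarate to R-2-hydroxyglutarate (R-2HG). That metabolite competes with 2-oxoglutarate at TET enzymes, which begin the removal of 5-methylcytosine, and at histone demethylases. In a cell with the mutant enzyme the metabolite is made inside the cell, whereas in treated mice it arrives through the circulation. Methylated CpGs at promoters usually go with a silent gene, and methylation within genes or between genes has no single reading.

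The values are the authors' differences in percent methylation between groups, in percentage points. No level per library was analysed here, read depth is unknown, and no replicate error, interval or own test can be given. How many windows the authors tested is unknown, so the share of tested windows that was listed cannot be stated. The sign of the tables is fixed only up to a reversal of all of them together. In the reading used here the deposited table of R-2HG against IDH1wt runs opposite to the other tables, so its values are printed here with the sign reversed, as R-2HG minus IDH1wt. Those of the other tables stand as deposited. Values are given as R-2HG minus IDH1mut, and under the opposite reading each "higher" becomes "lower". Which group stood apart from IDH1wt does not depend on that choice.

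Listed windows lay over the promoters of 40 genes, meaning that the window overlapped the stretch from 250 bp upstream to 50 bp downstream of the start site. RefSeq promoters of build GRCm38.p6 were found for 27 of these genes, and 22 of the 27 had a single promoter in that table. The 6 below are among those at which the group that moved is known. It is also known at 2610524H06Rik, Atcayos, 4930525G20Rik and Scamp5, named after their values were seen. These were all lower in R-2HG and are not shown, so the 6 do not reflect the balance of directions. Methylation in the listed windows over the 6 promoters was lower in R-2HG than in IDH1mut at the first 3, and higher at the last 3. CpG dinucleotides are in capitals.

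Spag17, chr3:99885167-99885466, plus strand: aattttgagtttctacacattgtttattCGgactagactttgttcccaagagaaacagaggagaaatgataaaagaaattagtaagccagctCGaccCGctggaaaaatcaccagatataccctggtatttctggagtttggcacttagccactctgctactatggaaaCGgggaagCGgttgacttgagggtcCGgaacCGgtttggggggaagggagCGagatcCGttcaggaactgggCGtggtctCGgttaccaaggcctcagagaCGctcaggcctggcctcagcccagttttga

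Notch3, chr17:32166841-32167140, minus strand: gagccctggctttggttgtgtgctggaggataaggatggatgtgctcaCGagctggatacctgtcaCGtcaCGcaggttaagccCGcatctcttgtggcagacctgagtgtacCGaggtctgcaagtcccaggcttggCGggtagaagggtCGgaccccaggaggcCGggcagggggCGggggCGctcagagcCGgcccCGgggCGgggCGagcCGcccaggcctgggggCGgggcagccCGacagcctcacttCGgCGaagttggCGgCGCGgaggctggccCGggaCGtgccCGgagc

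Rac3, chr11:120721218-120721517, plus strand: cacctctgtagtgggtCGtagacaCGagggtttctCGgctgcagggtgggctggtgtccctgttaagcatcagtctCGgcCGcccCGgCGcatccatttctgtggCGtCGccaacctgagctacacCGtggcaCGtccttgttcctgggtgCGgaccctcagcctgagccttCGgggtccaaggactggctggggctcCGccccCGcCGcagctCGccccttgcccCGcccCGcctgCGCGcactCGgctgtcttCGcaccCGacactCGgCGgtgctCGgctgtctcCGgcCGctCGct

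Zfp882, chr8:71908356-71908655, plus strand: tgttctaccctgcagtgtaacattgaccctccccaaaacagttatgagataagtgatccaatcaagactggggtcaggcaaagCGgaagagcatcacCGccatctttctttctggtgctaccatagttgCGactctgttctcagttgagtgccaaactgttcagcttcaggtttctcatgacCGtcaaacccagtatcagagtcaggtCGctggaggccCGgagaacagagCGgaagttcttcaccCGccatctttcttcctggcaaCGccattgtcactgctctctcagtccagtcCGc

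4930511A02Rik, chr12:11437983-11438282, plus strand: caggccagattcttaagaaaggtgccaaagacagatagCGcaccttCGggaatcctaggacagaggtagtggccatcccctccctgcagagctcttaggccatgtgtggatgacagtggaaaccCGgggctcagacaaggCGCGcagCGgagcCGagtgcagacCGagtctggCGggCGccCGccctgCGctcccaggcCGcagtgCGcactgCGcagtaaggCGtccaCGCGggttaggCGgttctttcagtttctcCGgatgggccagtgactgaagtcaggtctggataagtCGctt

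Tsks, chr7:44942990-44943289, plus strand: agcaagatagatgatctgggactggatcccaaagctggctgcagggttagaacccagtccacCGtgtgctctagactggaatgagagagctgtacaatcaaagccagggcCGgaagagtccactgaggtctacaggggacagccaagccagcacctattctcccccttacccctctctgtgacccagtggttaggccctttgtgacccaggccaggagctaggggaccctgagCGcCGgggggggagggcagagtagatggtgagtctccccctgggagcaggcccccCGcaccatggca

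These runs are 300 bases long and are read 5′ to 3′ along the gene. The number of CpGs was 12 at Spag17, 25 at Notch3, 30 at Rac3, 10 at Zfp882, 21 at 4930511A02Rik and 5 at Tsks. The letters CCGG, the MspI site at which RRBS fragments begin, occurred 2, 5, 2, 1, 2 and 2 times. Both motifs read the same on either strand, and each CCGG holds 1 CG. CCGG was in 100% of the 22 promoters of genes with a single entry, in 85.3% of the 34 promoters of all 27 matched genes, and in 52.8% of all 32851 promoters in the RefSeq table. RRBS reads only fragments that begin at CCGG, so a high share in promoters with a listed window is set by the assay. The median number of CpGs was 11.5 in the 22 promoters and 7 in all promoters. A RefSeq start site of GRCm38.p6 need not be the mm9 start site the authors used.

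At Spag17, which encodes a protein of the ciliary axoneme, 2 windows holding the start site had differences of -34.7 and -32.6 points per the authors' deposited table. IDH1mut was 39.9 and 37.9 points above IDH1wt in these windows per the authors' deposited table, and subtraction placed R-2HG at 5.15 and 5.28 points. Notch3 encodes a Notch receptor, and its start site lay 48 bp upstream of a window with -28.1 points per the authors' deposited table. There IDH1mut was 27.2 points above IDH1wt by the authors' deposited table, and R-2HG was at -0.91 points by subtraction. Rac3, a small GTPase gene, had -27.7 points in the window that ends 32 bp upstream of its start site per the authors' deposited table, with IDH1mut at 34.4 and R-2HG, by subtraction, at 6.68 points. Spag17 and Rac3, like Tsks below, were named after their values were seen. The windows at all 3 genes were thus above IDH1wt in the mutant cells and within 7 points of it in treated cells. The Notch3 window begins 48 bp downstream of the start site and the printed run ends at 50 bp. Its value therefore describes DNA that lies almost wholly downstream of the printed letters.

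The other 3 promoters were below IDH1wt in IDH1mut. Zfp882, a zinc finger gene, was 32.4 to 34.3 points higher in R-2HG over 3 windows per the authors' deposited table, and in 1 of them IDH1mut was listed at -25.8 points against IDH1wt. The noncoding RNA gene 4930511A02Rik was 29.2 to 35.4 points higher over 3 windows per the authors' deposited table. IDH1mut was at -49.2 points in the window with the largest difference, again per the authors' deposited table, and R-2HG at -13.9 points by subtraction. At Tsks, which encodes a substrate of testis-specific kinases, R-2HG was 26.4 and 27.2 points higher per the authors' deposited table, with IDH1mut at -29.7 and -29.96 points. Among values that could be obtained at these 3 genes, 4930511A02Rik alone had R-2HG more than 10 points from IDH1wt.

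Most listed windows were less methylated in R-2HG than in IDH1mut. Lower values in R-2HG were listed for 389 windows, 64.5%, and higher values for 214, per the authors' deposited table. Lower windows were nearest to 239 genes and higher windows to 135, and 5 genes had both: Arap3, Dmrtb1, Notch3, Rspo1 and Skor2. Lower windows had quartiles of -34.1 and -27.0 points and reached -54.6, and higher windows had quartiles of 26.9 and 34.1 points and reached 61.7, per the authors' deposited table. The windows nearest to zero were at -25.02 and 25.01 points, so the list begins at a threshold of 25 points. Many members sit close to it: 341 windows, 56.6%, were under 30 points and 58 were at 40 points or more. The authors' q was 0 as deposited for 494 windows and above 0.0001 for 13, with a largest value of 0.0074. These 13 include the windows at Zfp36l1, Tpcn1 and Elovl6, which are named below for their differences.

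**Figure D1:**
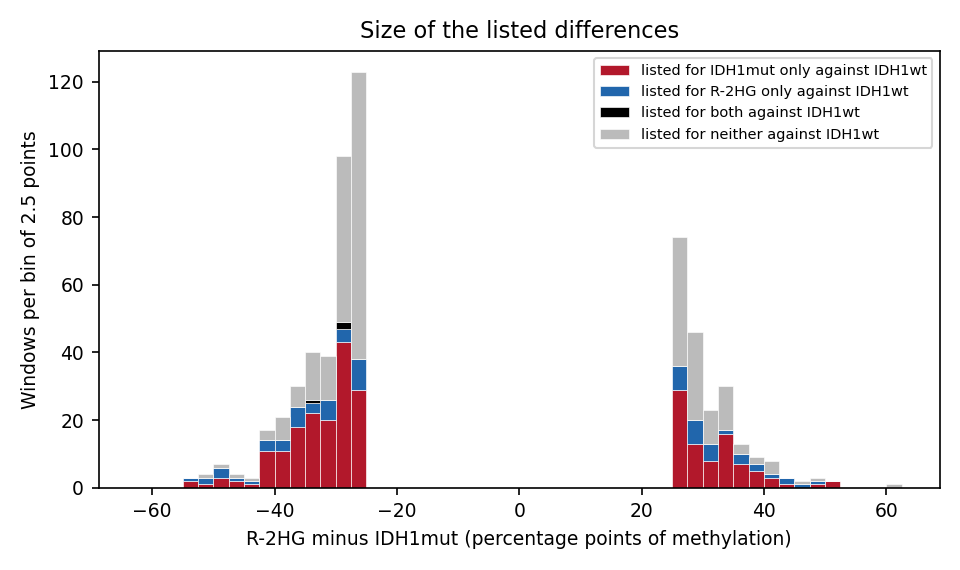
Histogram of the 603 listed differences, R-2HG minus IDH1mut in percentage points on the horizontal axis and windows per bin of 2.5 points on the vertical axis, stacked by the group also listed against IDH1wt. No window lies between -25 and 25 points, the negative side holds 389 windows and the positive side 214, and windows listed for neither group crowd next to the threshold.

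The windows are fewer as separate measurements than their number says. Same-direction windows at most 1000 bp apart formed 379 clusters, of which 241 were lower in R-2HG and 138 higher. A cluster held 1 window in 186 cases, 2 in 168 and 3 or more in 25, and the longest held 5 windows, at Mmp23. In 66 places neighbouring windows carried an identical difference to the last digit, which covers 132 windows and leaves 537 distinct values. Prrxl1, a homeobox gene of sensory neurons, is an example chosen after its values were seen: both of its windows stand at -28.2 points per the authors' deposited table. Overlapping windows would carry an identical value where the same CpGs are counted in both, but whether this holds in these places was not tested.

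Of the windows also listed against IDH1wt, most were listed for the mutant group. IDH1mut alone was also listed against IDH1wt in 248 of the 603 windows (41.1%), R-2HG alone in 72 (11.9%), both in 3 and neither in 280 (46.4%). The windows are chosen here for a difference involving IDH1mut and R-2HG, and both comparisons with IDH1wt reuse those libraries, so a deviation in the IDH1mut libraries enters 2 tables at once. Its part in these counts was not tested. Seen from the other tables, 251 of the 1493 windows listed for IDH1mut against IDH1wt (16.8%) and 75 of the 750 listed for R-2HG (10%) also differed between the 2 groups. By direction the share was 16% of gains and 18.6% of losses for IDH1mut. For R-2HG it was 6.47% of gains and 17.5% of losses, so the lower share was limited to gains.

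**Figure D2:**
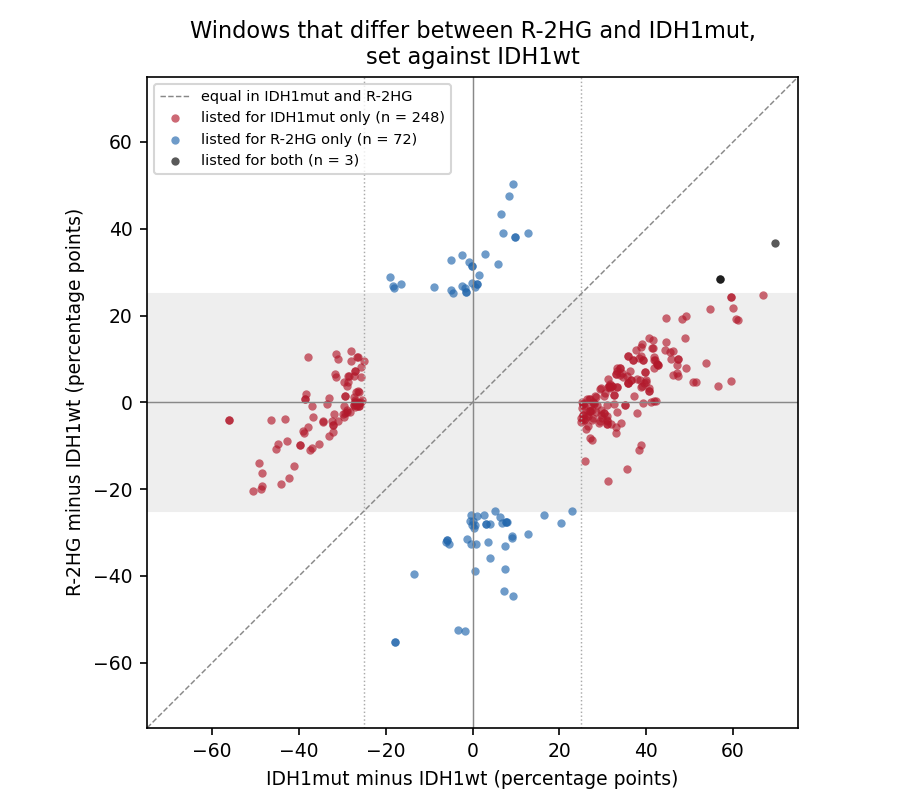
Each point is a window that differs between R-2HG and IDH1mut, with IDH1mut minus IDH1wt on the horizontal axis and R-2HG minus IDH1wt on the vertical axis, both in percentage points. A value not in the authors' tables was obtained by subtraction; the grey band marks under 25 points for R-2HG, the dotted lines 25 points for IDH1mut, and the dashed line equality. The 248 windows listed for IDH1mut only lie in the band on both sides, the 72 listed for R-2HG only lie above and below it near the vertical axis, and the 280 windows listed for neither are not drawn.

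Of the 248 windows listed for IDH1mut alone, 163 were gains in IDH1mut, with a median of 34.7 points per the authors' deposited table, and 85 were losses, with a median of -31.1. The value left for R-2HG by subtraction had a median of 1.29 points (quartiles -3.02 and 6.76), and it lay within 5 points of IDH1wt in 129 windows (52%) and within 10 points in 200 (80.6%). R-2HG was on the same side of IDH1wt as IDH1mut in 156 windows and on the other side in 92. It was 10 points or more towards IDH1mut in 38 windows and 10 points or more away in 10. The choice of these windows sets much of this: R-2HG had to be 25 points or more from IDH1mut, which leaves little room on the side of IDH1mut, and it was not listed against IDH1wt. Closeness of R-2HG to IDH1wt here is therefore a description of the chosen windows.

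The value of R-2HG farthest on the other side of IDH1wt was at Fgfr2, a fibroblast growth factor receptor gene, whose windows lay at -102430 and -102680 bp. R-2HG minus IDH1mut was -49.3 and -50.9 points there per the authors' deposited table. IDH1mut was 31.2 and 35.6 points above IDH1wt per the authors' deposited table, and subtraction put R-2HG at -18.2 and -15.3 points. The groups thus lay on both sides of IDH1wt. At Dusp8, a MAP kinase phosphatase gene, the order was graded: IDH1mut was listed at -44.1 to -50.7 points in 3 windows per the authors' deposited table, and R-2HG was at -18.8 to -20.3 points by subtraction. Dusp8 and Pcdhga8 were named after their values were seen. Pcdhga8, a gamma-protocadherin gene with near-identical neighbours, had IDH1mut at 49.1 points per the authors' deposited table and R-2HG at 19.98 points by subtraction.

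The 3 windows listed against IDH1wt for both groups were graded in the same order. Mab21l2 had 1 of them, with IDH1mut at 69.6 and R-2HG at 36.7 points per the authors' deposited table. Aqp12, an aquaporin gene of the pancreas whose windows lay 44842 and 45092 bp downstream of the start site, had the other two, with IDH1mut at 57.1 and R-2HG at 28.5 points per the authors' deposited table. In each of them methylation was highest in IDH1mut, intermediate in R-2HG and lowest in IDH1wt.

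The 72 windows listed for R-2HG alone were nearest to 46 genes. R-2HG was above IDH1wt in 30 of them, with a median of 29.1 points per the authors' deposited table, and below it in 42, with a median of -30.6. Subtraction left IDH1mut with a median absolute value of 5.12 points. It was on the side opposite to R-2HG in 45 windows and on the same side in 27, an order the choice of windows largely sets, since IDH1mut had to be 25 points or more from R-2HG. Treh, which encodes the trehalose-splitting enzyme, stood at -25.1 points in R-2HG per the authors' deposited table, and IDH1mut was at 23.0 points by subtraction, the IDH1mut value farthest on the other side of IDH1wt among these windows.

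**Figure D3:**
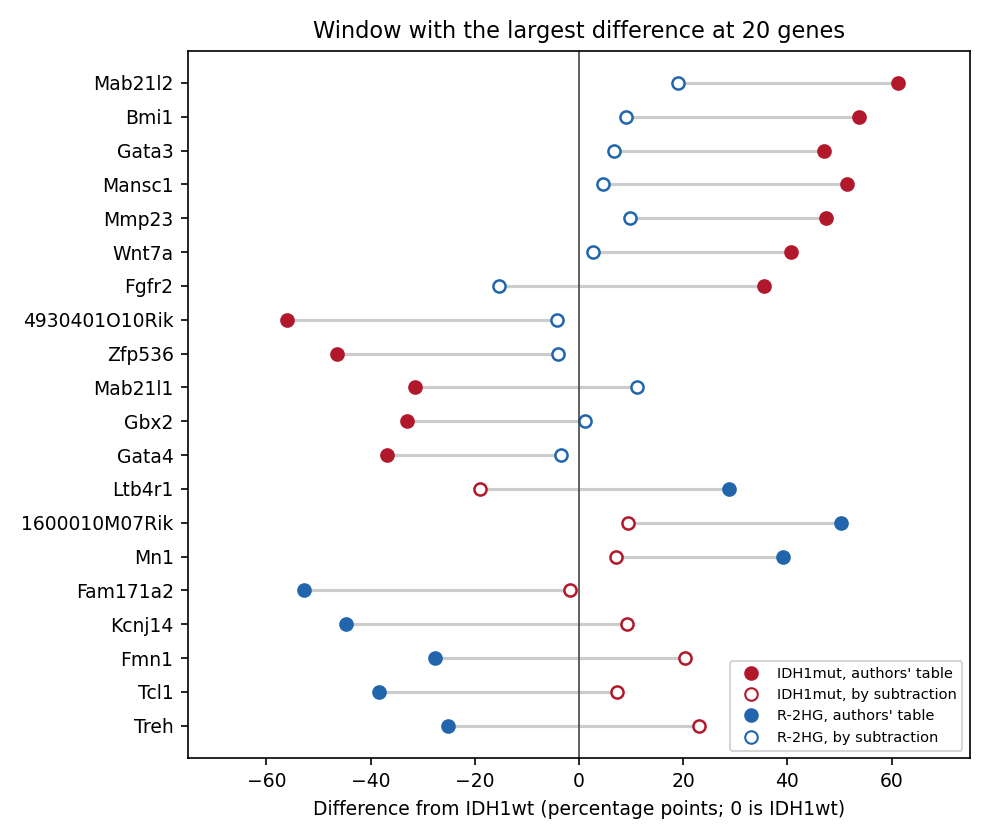
For 20 genes, the window with the largest difference between R-2HG and IDH1mut among those with a value against IDH1wt, drawn as IDH1mut (red) and R-2HG (blue) in percentage points from IDH1wt at 0. Filled circles are listed in the authors' tables and open circles come from subtraction; at the upper 12 genes IDH1mut is the filled circle, at the lower 8 R-2HG is.

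Of 450 genes in 18 lists of pathways, regulators and cell type markers, 24 were the nearest gene of a listed window (5.33%). Of the 26220 RefSeq genes with a curated transcript 1.4% were, 0.515% with a window higher in R-2HG and 0.908% with a window lower. The lists were drawn up with results of these data known, so the larger share is a description and no evidence about them. Of the 24 genes, 11 were lower in R-2HG, 11 higher and 2 had windows in both directions, and 6 had a window from -2000 to 500 bp of the start site.

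Among 45 developmental and Polycomb target genes 6 were listed, 3 higher, 2 lower and 1 in both directions. Mab21l2, a developmental gene of eye and body wall, was lower in R-2HG in 4 windows, with differences of -32.8 to -42.3 points per the authors' deposited table, from 206 to 956 bp downstream of the start site (chromosome 3, 86350751 to 86352000). In 3 of these windows IDH1mut alone was listed. Over the 4 windows IDH1mut stood 60.8 to 69.6 points above IDH1wt per the authors' deposited table. R-2HG was also above IDH1wt, by 18.9 to 36.7 points, obtained by subtraction where it was not listed. Mab21l1, the paralogue of Mab21l2, was higher in 4 windows, by 28.1 to 42.7 points per the authors' deposited table, from 71 to 821 bp downstream (chromosome 3, 55586501 to 55587750). IDH1mut was below IDH1wt, at -31.5 and -31.1 points in the first 2 of these per the authors' deposited table, and R-2HG was at 11.2 and 10.1 points by subtraction. The paralogues therefore differed between the groups in opposite directions, with IDH1mut farther from IDH1wt at both.

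Gbx2, a homeobox gene of the midbrain and hindbrain border, was 34.2 points higher in R-2HG at 2252 bp per the authors' deposited table, IDH1mut standing at -33.1 and R-2HG, by subtraction, at 1.07 points. Zfp503, a corepressor gene, was 26.2 points higher at 6324 bp per the authors' deposited table, and here R-2HG was the listed group, with 39.0 points. Irx3, a homeobox gene, had 3 neighbouring windows from -165199 to -165699 bp that were lower in R-2HG. The authors' deposited table lists R-2HG below IDH1wt in the first, with -38.8 points, and IDH1mut above it in the last, with 27.7 points. Skor2, a corepressor of the cerebellum, had 2 windows of -28.3 points beginning at -265894 bp and 2 of 30.7 points beginning at -245894 bp per the authors' deposited table.

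Of 23 stem and progenitor regulators Bmi1 and Gata2 were listed, both lower. The Polycomb protein made from Bmi1 keeps blood stem cells self-renewing. Its 3 windows lay from 3608 to 4108 bp downstream of the start site (chromosome 2, 18602251 to 18603250), with -44.8, -35.7 and -31.4 points per the authors' deposited table. IDH1mut was 53.7, 45.6 and 41.8 points above IDH1wt per the authors' deposited table, and R-2HG 8.96, 9.97 and 10.4 points by subtraction. Gata2, a transcription factor gene of blood stem cells, had -27.2 points at -46158 bp per the authors' deposited table, with R-2HG 14.4 points above IDH1wt by subtraction and IDH1mut listed at 41.6.

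Listed genes numbered 2 of 19 in the programme of HoxA9 and its cofactor. Meis1 encodes that cofactor and had -25.9 and -25.1 points at 143473 and 143223 bp per the authors' deposited table, and R-2HG was at 14.9 and 19.5 points by subtraction where IDH1mut was at 40.7 and 44.6. Hoxa10 was higher by 28.6 points at 939 bp per the authors' deposited table. Of the 28 genes of the other Hox clusters only Hoxc10 was listed, lower, at -26.2 points at 26 bp per the authors' deposited table. Both Hox windows were listed for neither group against IDH1wt.

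Of the 41 genes in the Wnt list 2 were listed, both lower in R-2HG. The receptor gene Fzd2 had 4 windows of -25.1 to -33.8 points between 1008 and 2008 bp downstream per the authors' deposited table. The ligand gene Wnt7a had -37.9 points in 2 windows at 10364 and 10614 bp per the authors' deposited table, with IDH1mut at 40.7 and R-2HG, by subtraction, at 2.72 points. Of 20 Notch genes 2 were listed. Notch3 was lower close to its start site, as above, and higher by 26.5 points at 22798 bp per the authors' deposited table. Dtx1, which encodes a Notch-binding ubiquitin ligase, was higher by 27.9 points at -2074 bp per the authors' deposited table. Neither list covers its pathway, and genes outside them were named after their values were seen. The Wnt gene Rspo1 had 1 window at 26.0 and 2 at -29.5 points per the authors' deposited table. The Notch genes Nrarp and Neurl1a had -26.0 points, and 26.6 and 36.2 points, per the authors' deposited table.

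Of 17 genes of the DNA methylation machinery, Dnmt3a, a de novo methyltransferase gene, was the listed one. A window 9 bp downstream of the nearest start site (chromosome 12, 3891751 to 3892250) was lower in R-2HG, at -35.8 points per the authors' deposited table, and it was listed for neither group against IDH1wt. The window overlapping it by 250 bp was 25.8 points above IDH1wt in IDH1mut per the authors' deposited table. The lists of 31 other 2-oxoglutarate-dependent dioxygenases, 19 genes of IDH and 2-hydroxyglutarate metabolism, 23 Polycomb and trithorax genes, 29 imprinted genes and 23 MAPK genes had no listed gene. Neither these lists nor that of the 17 DNA methylation genes cover their classes. Genes outside them were listed and are named here after their values were seen. Dppa3, outside the list of 17, had -28.7 points in 2 windows at 811 and 1061 bp per the authors' deposited table. P4ha3, a collagen prolyl 4-hydroxylase gene that belongs to the 2-oxoglutarate-dependent dioxygenases, was higher in R-2HG by 34.6 and 34.9 points at 2973 and 3223 bp per the authors' deposited table. IDH1mut stood at -25.1 and -28.7 points against IDH1wt there per the authors' deposited table. Bmi1 and Rybp are Polycomb genes, Smarcb1 encodes a SWI/SNF subunit (25.4 points in 2 windows per the authors' deposited table), and Dusp8 and Map4k1 (-28.4 points per the authors' deposited table) act on MAP kinase pathways. Of 23 tumour suppressors often methylated in cancer, Gata4 and Esr1 were higher by 33.4 and 39.3 points per the authors' deposited table, in windows at -27155 and 99996 bp. Zfp36l1, an RNA-binding regulator of cell growth, was the single listed gene of 22 cell cycle and growth genes, with -51.8 points at 89501 bp per the authors' deposited table.

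Of 32 genes of myeloid differentiation, Ltb4r1 and Mmp9 were listed and higher in R-2HG. Ltb4r1 encodes the leukotriene B4 receptor of neutrophils. Its 3 windows lay 1454 to 1954 bp downstream (chromosome 14, 56386251 to 56387250) with 47.8, 45.1 and 44.6 points per the authors' deposited table. R-2HG was 28.8, 26.8 and 26.4 points above IDH1wt per the authors' deposited table, while IDH1mut lay on the other side by subtraction, at -19.0, -18.3 and -18.2 points. Mmp9, a gelatinase gene of neutrophils, was higher by 30.2 points at 5252 bp per the authors' deposited table.

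Markers of other cell types were listed in 2 of 3 lists. Of 21 lymphoid genes Gata3 was listed, the T cell regulator, with -34.0, -40.3 and -29.6 points in 3 windows 1228 to 1728 bp downstream per the authors' deposited table (chromosome 2, 9798001 to 9799000). Subtraction put R-2HG at 14.8, 6.71 and 3.64 points there and the authors' deposited table has IDH1mut at 48.8, 47.0 and 33.3. Of 19 stromal and endothelial genes, the collagen gene Col1a1 and the leptin receptor gene Lepr were higher, by 32.0 and 33.9 points and by 27.6 points per the authors' deposited table. None of 18 erythroid and megakaryocytic genes was listed. The tables hold no methylation level, so the labelled cell type could not be checked against its markers.

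**Figure D4:**
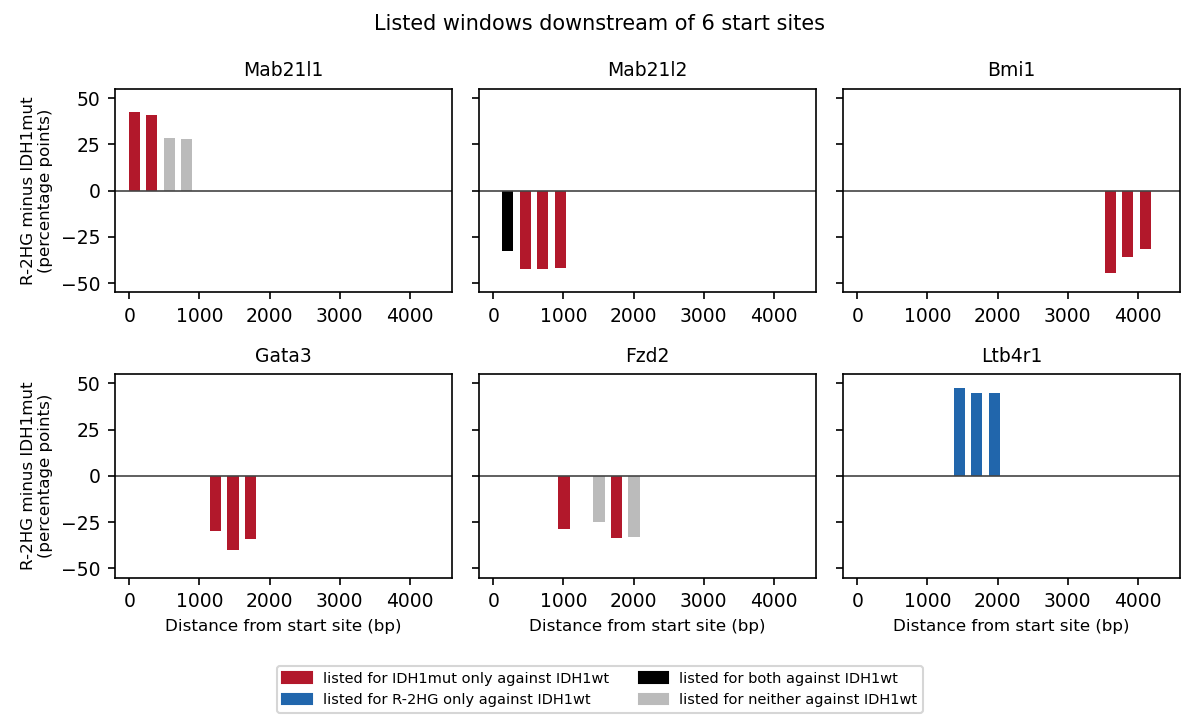
Listed windows downstream of the start sites of 6 genes, with distance from the start site in bp on the horizontal axis and R-2HG minus IDH1mut in percentage points on the vertical axis; 1 bar is 1 window, drawn at the distance of its nearest edge and coloured by the group also listed against IDH1wt. Mab21l1 and Ltb4r1 are above 0 and Mab21l2, Bmi1, Gata3 and Fzd2 below it.

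Close to start sites, windows also listed against IDH1wt were nearly all listed for IDH1mut. From -2000 to 500 bp of a start site lay 115 windows (19.1%) near 75 genes, 81 lower in R-2HG and 34 higher. Of these 57 (49.6%) were also listed for IDH1mut against IDH1wt and 3 (2.61%) for R-2HG. Of the 488 windows elsewhere 194 (39.8%) were listed for IDH1mut and 72 (14.8%) for R-2HG. The 3 promoter windows listed for R-2HG were at Gpx3, Gm6815 (named because the count is 3) and Mab21l2, the last also listed for IDH1mut. Gpx3, which encodes a secreted glutathione peroxidase, had -40.6 points at 147 bp per the authors' deposited table, with R-2HG at -33.0 and IDH1mut, by subtraction, at 7.57 points. Windows holding the start site numbered 37, near 28 genes, and none of them was listed for R-2HG. R-2HG alone was also listed in a small share of windows beyond 50 kb downstream, 6.19%, against 12% beyond 50 kb upstream, 17.8% downstream to 50 kb and 15.8% upstream to 50 kb, so a low share was not limited to start sites. This split was not tested, since windows next to each other can share CpGs and all rest on the same libraries.

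**Figure D5:**
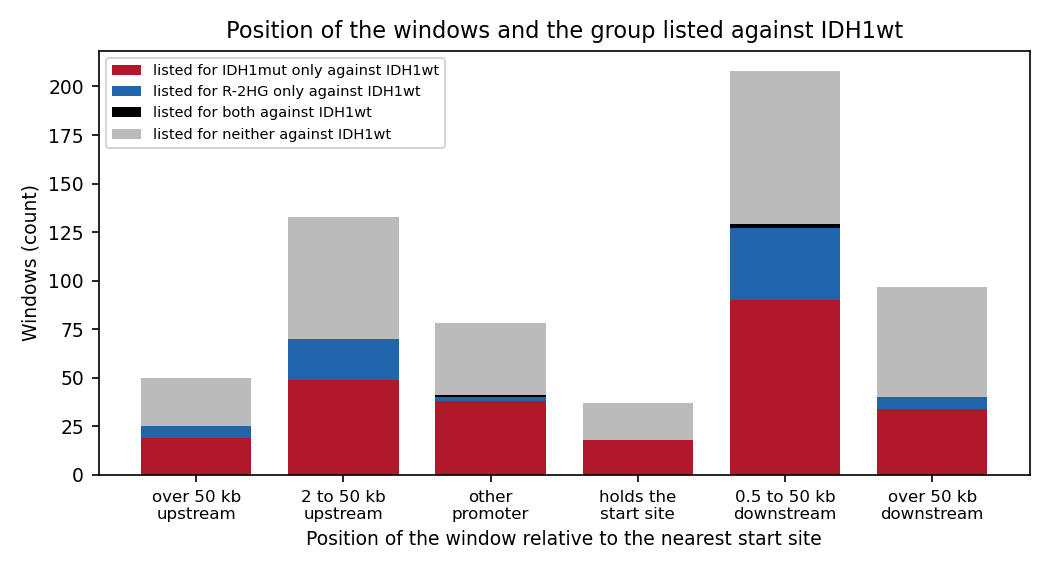
Number of listed windows by position relative to the nearest start site, stacked by the group also listed against IDH1wt; "other promoter" means from -2000 to 500 bp with the start site outside the window. R-2HG alone was listed in 0 of 37 windows holding the start site and 2 of 78 other promoter windows, against 37 of 208 windows downstream to 50 kb 21 of 133 upstream to 50 kb, 6 of 97 beyond 50 kb downstream and 6 of 50 beyond 50 kb upstream.

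Among promoter windows lower in R-2HG, Mansc1, which encodes a membrane protein, had the largest difference, with -39.98 to -46.8 points in 3 windows holding or within 257 bp of its start site per the authors' deposited table and IDH1mut at 46.2 to 51.4 points. Esam, an adhesion molecule gene of endothelium and platelets, had -38.6 and -32.2 points in 2 windows holding its start site per the authors' deposited table. IDH1mut was 33.0 and 26.2 points above IDH1wt there per the authors' deposited table. Mmp23, a membrane-bound metalloproteinase gene, had 5 windows of -25.02 to -37.6 points from -259 to -1259 bp per the authors' deposited table. Sowahb and 6430531B16Rik, with -39.6 and -38.7 points, were listed for neither group against IDH1wt. In the windows of Mansc1, Esam and Mmp23 that were listed against IDH1wt, the mutant cells were above IDH1wt and R-2HG cells, by subtraction, between -6.03 and 10.8 points from it.

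Higher promoter windows included Tmcc3, with 39.8 points at -352 bp, and Hcfc1, a chromatin cofactor gene on the X chromosome, with 37.3 and 29.1 points, per the authors' deposited table. At Tmcc3 IDH1mut was at -28.0 points per the authors' deposited table and R-2HG at 11.8 points by subtraction. Gfra3, a receptor gene of the GDNF family, and Tagln3 were higher by 33.7 and 33.6 points at 42 and 395 bp per the authors' deposited table, and were listed for neither group against IDH1wt. Runx1t1, the ETO partner of RUNX1 in leukaemic fusions, named after its values were seen, was higher by 27.7 points in a window holding its start site per the authors' deposited table.

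Beyond promoters, R-2HG was the group listed against IDH1wt in a further set of windows, whose place within or outside genes is not known here. Mn1, a transcriptional coactivator gene of myeloid leukaemia, was higher in R-2HG by 28.0, 32.1 and 29.4 points at 567, 2067 and 2317 bp per the authors' deposited table. R-2HG was 29.4 and 39.1 points above IDH1wt in the first 2 of these windows per the authors' deposited table. In the third, which overlaps the second by 250 bp, IDH1mut was listed instead, at -32.0 points, and subtraction left R-2HG at -2.63. The difference between R-2HG and IDH1mut was thus similar in the overlapping windows at Mn1, while the values of both groups against IDH1wt were lower in the window at 2317 bp. At 1600010M07Rik R-2HG was 43.5 to 50.2 points above IDH1wt in 3 windows per the authors' deposited table, and 36.9 to 40.8 points above IDH1mut.

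Rybp, a Polycomb-associated gene, was higher in R-2HG by 33.4 and 36.2 points, Pcp4 by 37.8 points and Prdm6, a PR domain gene of smooth muscle, by 43.7 points, all listed for R-2HG against IDH1wt per the authors' deposited table. Among windows in which R-2HG was below IDH1wt, Fam171a2 and Kcnj14, a potassium channel gene, had differences from IDH1mut of up to -51.0 and -54.0 points per the authors' deposited table. Fmn1, an actin nucleator gene, had -48.1, -43.2 and -31.1 points from 36360 to 36860 bp per the authors' deposited table. R-2HG stood at -27.7 to -30.3 points in these 3 windows per the authors' deposited table, and IDH1mut at 20.4, 12.8 and 3.09 by subtraction. Tcl1, a lymphoid oncogene, had -45.7 and -39.8 points at -54805 and -55055 bp per the authors' deposited table, and Tex13, on the X chromosome, had 3 windows of -34.6 to -42.3 points.

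Large differences far from start sites were found in both directions. Bach1, a haem-regulated repressor gene, had -54.6 and -52.8 points at 98304 and 98054 bp per the authors' deposited table, with IDH1mut at 59.5 and 56.5. The noncoding gene 1700030C10Rik had 6 lower windows, 4 within 391 bp of its start site listed for neither group and 2 at -29112 and -29362 bp listed for IDH1mut, with up to -49.3 points per the authors' deposited table. In the other direction, 4930401O10Rik was higher by 51.9 points in 2 windows from -27128 bp per the authors' deposited table, with IDH1mut at -56.0. Zfp536, a zinc finger gene of neurons, was higher by 42.4 points at 289522 bp per the authors' deposited table, with IDH1mut at -46.5. Zfp763, with 39.4 points, and Tpcn1, an endolysosomal channel gene, with 40.3 points, were likewise windows in which IDH1mut alone was listed against IDH1wt.

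Noncoding transcripts were the nearest feature of 87 windows (14.4%), 41 higher in R-2HG and 46 lower, and protein-coding transcripts of 516, 173 higher and 343 lower. A microRNA gene had a window within 500 bp of its start in 3 cases. The mature microRNAs of these 3, from RefSeq build GRCm38.p6, are shown with the seed (bases 2 to 8) in capitals. At Mir5103 the windows hold the start, while at Mir128-2 and Mir196a-1 the window lies upstream of it.

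mmu-miR-128-3p: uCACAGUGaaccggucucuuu

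mmu-miR-128-2-5p: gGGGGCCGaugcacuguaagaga

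mmu-miR-196a-5p: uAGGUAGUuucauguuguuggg

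mmu-miR-196a-1-3p: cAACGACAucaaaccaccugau

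mmu-miR-5103: uCAUCCGGgauccccugagg

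No seed was shared among these 5. At Mir128-2 a window 37 bp upstream was lower in R-2HG, at -29.6 points per the authors' deposited table, IDH1mut standing at 25.8 points and R-2HG, by subtraction, at -3.78. Mir196a-1, which lies in the HoxB cluster and whose product is known to target Hox transcripts, was higher by 26.1 points at -478 bp per the authors' deposited table. At Mir5103 2 windows holding the start were higher, by 25.3 and 48.2 points per the authors' deposited table, and in the second IDH1mut was listed at -37.9 points. Mir128-2 and Mir196a-1 were named after their values were seen. Expression was not analysed here.

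The 280 windows listed for neither group against IDH1wt had the smaller differences, with a median absolute value of 27.9 points per the authors' deposited table, against 31.2 in windows listed for IDH1mut only and 32.1 in those listed for R-2HG only. Of them 198 (70.7%) were under 30 points. If both groups were within 25 points of IDH1wt they cannot differ by over 50 points, yet 2 of these windows did: Ppa1, an inorganic pyrophosphatase gene, with 61.7 points at -22619 bp, and Zfp36l1, per the authors' deposited table. If IDH1wt was also measured there, at least 1 difference from it must be 25 points or more at each, though neither table lists it. Coverage of IDH1wt in these 2 windows is unknown. The authors' q for R-2HG against IDH1mut was 7.4e-05 at Ppa1 and 0.0019 at Zfp36l1. A window overlapping by 250 bp was listed for IDH1mut in 22 of the 280, for R-2HG in 6, for both in 2 and for neither in 250. At Ppa1 that overlapping window has IDH1mut above IDH1wt, by 28.9 points per the authors' deposited table. Which group stood apart from IDH1wt in the Ppa1 window itself is not known and was not tested. Elovl6, a fatty acid elongase gene, and Ociad2 had 47.1 and 48.2 points per the authors' deposited table, also with no listing against IDH1wt.

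Chromosomes 4 and 7 held the most windows, 65 and 61. On chromosome 8, 31 of 34 windows were lower in R-2HG, and on the X chromosome 8 of 16. The authors' tested windows per chromosome are not known, so these are counts only.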

How the data were processed

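RRBS libraries of sorted mouse bone marrow cells were cut with MspI, bisulfite converted and sequenced on 1 lane each, per the labels' protocols. The tools Trim Galore, BSMAP and methylKit 0.9.1 and the mm9 build come from the submitters' processing notes. Settings, coverage filter and test: not given in the sources used here. Per window, the deposited tables hold a p-value and q-value and a signed difference score in percentage points, per the file headers; whether these p-values cover the spread between libraries is unknown. The authors' distance to the nearest start site, negative upstream, is 0 where the window holds it.

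Windows were counted once, joined across tables by chromosome and start with Python 3.11.15 and pandas 2.3.3, and clustered within 1000 bp. Of 4 sign orders, 1 left a residual of 0 in the 3 windows of all tables and under 25 points in all 705 windows of exactly 2 tables. In it the sign of the R-2HG against IDH1wt table is reversed. Where 2 tables listed a window, subtraction gave the missing difference. Subtraction takes the level of each group in a window to be the same in every table. That could be checked exactly only in the 3 windows of all tables, and 2 of these are the overlapping windows at Aqp12. The steps were tested on simulated data. Symbols follow the authors; 363 of 370 transcripts matched RefSeq by accession. Members and gene lists were chosen with earlier results of these data known. Named genes are list members, the up to 10 genes with most windows, the 10 largest differences, the 10 largest per group listed against IDH1wt and the 10 largest in promoters, each per direction; others are said to be named after their values were seen. No test was made, since no values per library were analysed here.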

Additional observations from a re-analysis of the deposited data

How the results depend on the processing

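Every comparison rests on thresholded differences between groups, so leaving out a library was not possible, and depth, which would limit precision, is unknown. No paired analysis was possible because the tables carry no values per library. With only windows of 30 points or more, the share also listed for IDH1mut against IDH1wt was 51.5%, for R-2HG 17.6% and for neither 31.3%, near 159 genes. At 35 points or more these were 52.3%, 23.1%, 24.6% and 86 genes, and 31.5% of windows were higher in R-2HG. The cause of these shifts was not tested. Counting an overlapping window as listed gave 45.8% for IDH1mut and 41.5% for neither. The share in promoters was 25.2% among windows within 50 kb of a start site and 25% with promoters from -5000 to 1000 bp. The other values under these settings, under q of 0.0001 or less, and with other joining distances stayed within the 95% Clopper-Pearson interval of the value as deposited, which here only sets a yardstick, and the gene counts within 1.5 times. In all of them more windows were lower than higher in R-2HG.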
